A study of Homo sapiens with 6 samples.

Results

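Collagens are the main proteins of the extracellular matrix, and 10 genes for chains of the types that do not form striated fibrils were followed in HOS, an established line of human osteosarcoma cells; osteosarcoma is a tumour of bone. The chains were COL4A1, COL4A2, COL6A1, COL6A2, COL6A3, COL7A1, COL8A1, COL12A1, COL16A1 and COL18A1, chosen by symbol, and all 10 were found among the 16376 genes of the table. Agrimol B is a plant polyphenol from agrimony. RNA-seq libraries of HOS cells came from 3 samples after 24 h with Agrimol B and from 3 control samples, which the labels list as having no treatment. Cells of both groups carry the label wild type. The labels state neither the dose of Agrimol B nor whether control cells received the solvent or whether libraries came from separate cultures. The p-values thus measure the spread between these libraries only, and that spread may be technical.

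Each collagen molecule is a trimer whose chains wind round each other through repeats of glycine and a pair of further residues. Fibrillar collagens pack into long fibrils, while the types described here form the sheets, beaded filaments, anchors and linkers around them. Collagen IV builds the network of basement membranes, the thin matrix sheets under epithelia and around vessels, and collagen VI builds beaded filaments around cells of most connective tissues, bone and cartilage included. Bone tumour cells secrete a collagen-rich matrix.

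The libraries were close in scale, with a small offset between the groups. FPKM are fragments scaled to transcript length and to library depth. Total FPKM lay between 352990 and 355241 with Agrimol B and between 355550 and 359537 in control libraries. Median-ratio scaling divides each library by the median ratio of its genes to their mean over libraries. Its factors were 1.024 to 1.030 with Agrimol B and 0.975 to 0.980 in control libraries. The depths were read from the ratios of the lowest values and set to 1 in the first control library. They were 1.00, 1.19 and 1.16 with Agrimol B, against 1, 0.99 and 1.04 in control libraries. In pairs of libraries, 4.98% to 10.8% of the genes used sat at the ratio read as depth. The number of reads is unknown, so no counting error can be given for a value. Of the osteoblast markers, RUNX2 stood at 4.99 to 8.16 FPKM with Agrimol B and at 4.76 to 5.51 FPKM in control libraries, while BGLAP, which encodes osteocalcin, was under 1 FPKM in all 6 libraries. SP7 and IBSP were not found among the 16376 genes of the table. The endothelial marker PECAM1 and the immune marker PTPRC were also under 1 FPKM in all 6 libraries. In the third Agrimol B library the keratins KRT5 and KRT14 reached 10.4 and 5.87 FPKM, against at most 0.745 FPKM of either in the other 5 libraries, while KRT19 reached 3.17 and 2.68 FPKM in the second and the third Agrimol B library. The summed FPKM of the 6 epithelial markers was 13.3 to 34.2 with Agrimol B and 14.0 to 16.1 in control libraries, of which EPCAM alone averaged 14.0 ± 1.01 FPKM with Agrimol B and 13.8 ± 0.665 FPKM in control libraries (SD, n = 3 each). None of the 4 epithelial markers tested passed the test. Of 6 smooth muscle and pericyte markers 4 were tested and all 4 fell, with summed FPKM of 166 to 218 with Agrimol B and 505 to 608 in control libraries, while MYH11 was under 1 FPKM in all 6 libraries. ACTA2, the actin of smooth muscle, stood at 4.49 to 5.08 FPKM with Agrimol B and at 96.9 to 102 FPKM in control libraries. The endothelial markers summed to 2.83 to 3.03 FPKM with Agrimol B and to 3.85 to 4.49 FPKM in control libraries, where of 2 tested TIE1 rose and TEK fell. The immune markers summed to 7.49 to 10.3 FPKM with Agrimol B and to 4.04 to 4.59 FPKM in control libraries, nearly all from CD68, a lysosomal protein that other cells also make, which rose. Of 6 tested osteoblast markers, 2 rose and 3 fell, where 30.6% of all tested genes rose and 21.4% fell. These shares apply to all the marker lists. Their part in the collagen results was not tested.

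With Agrimol B, 4 of the 10 chains fell, 1 rose and 5 did not pass the test. COL8A1 fell 2.84-fold, COL16A1 1.62-fold, COL4A1 1.55-fold and COL18A1 1.19-fold, and COL6A2 rose 1.58-fold. All 10 passed the filter of a mean of 1 FPKM and were tested with limma (a linear model fitted to all genes, on log2(FPKM + 1), two-sided) with Benjamini-Hochberg adjustment over 12143 genes at a threshold of 0.05. By the same rule 52.0% of all tested genes were called, 30.6% higher and 21.4% lower, so 5 calls among 10 genes is a share close to that of the table as a whole. The median log2 difference of the 10 chains was -0.07, beside 0.07 over all tested genes. The groups did not overlap for the same 5 chains that were called, and 62.2% of all tested genes had groups that did not overlap, 36.2% higher and 26.0% lower with Agrimol B. In a bulk sample, less RNA per cell cannot be told apart from fewer cells that make it.

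**Figure D1:**
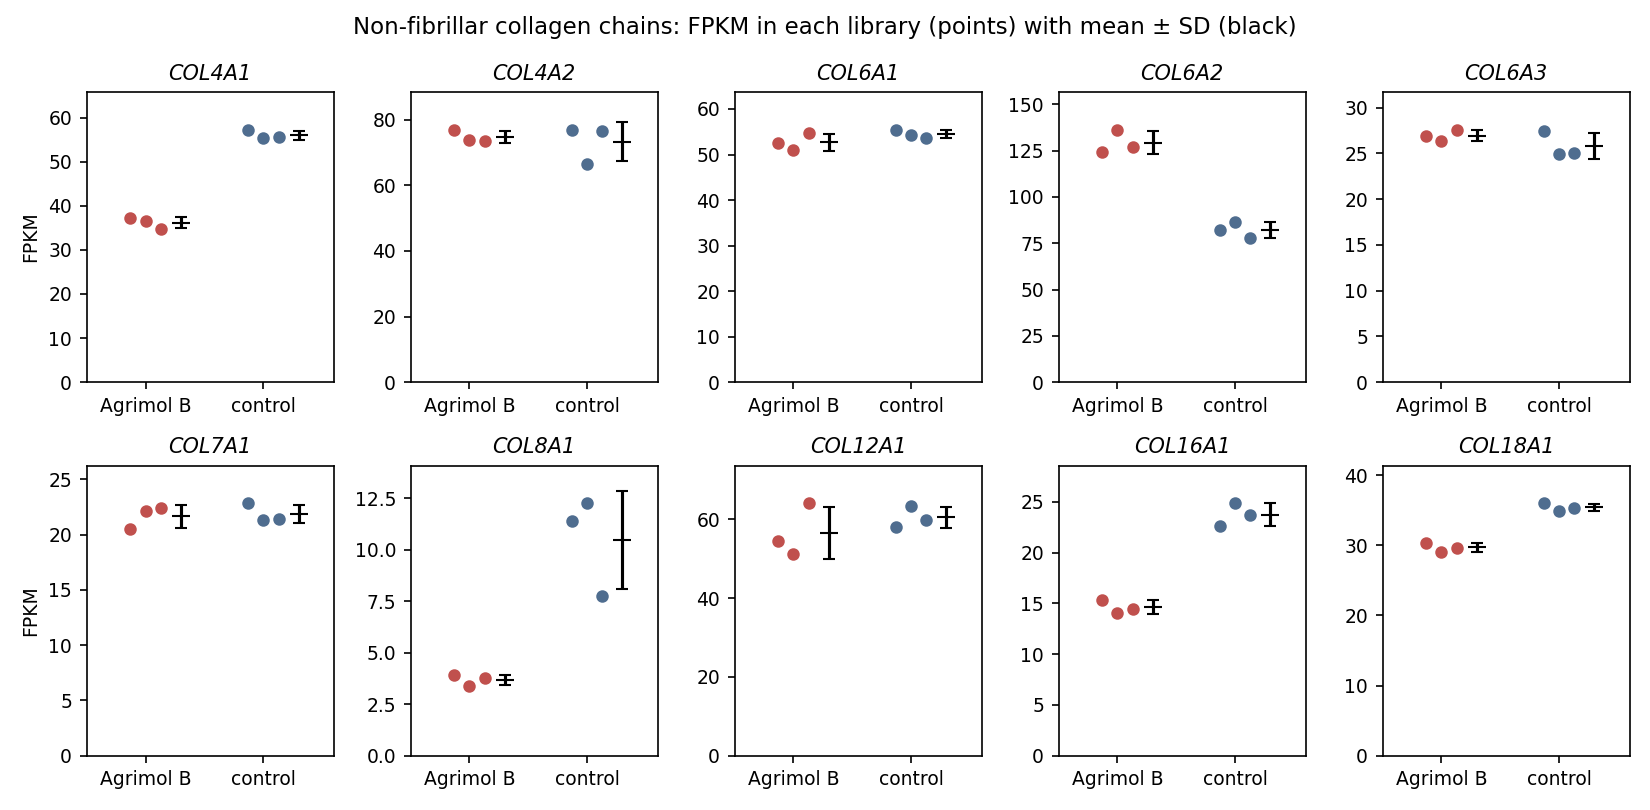
FPKM of each of the 10 chains in the 3 Agrimol B and the 3 control libraries, 1 panel per gene with its own axis from 0. Points are libraries and black bars are the mean ± SD (n = 3 per group). COL4A1, COL8A1, COL16A1 and COL18A1 lie lower and COL6A2 higher in all 3 Agrimol B libraries than in any control library.

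The levels of the chains spanned a wide range. FPKM is scaled to transcript length, but the lengths used are not stated, so levels of different genes compare only roughly. In Agrimol B libraries COL6A2 stood highest, at 129 ± 6.26 FPKM, followed by COL4A2, COL12A1, COL6A1, COL4A1, COL18A1, COL6A3, COL7A1, COL16A1 and COL8A1, the lowest at 3.68 ± 0.258 FPKM (SD, n = 3). In that order only COL12A1 and COL6A1 were neighbours whose ranges over libraries overlapped. In control libraries COL6A2 was again highest, at 82.0 ± 4.27 FPKM, and COL8A1 lowest, at 10.5 ± 2.37 FPKM. There COL4A1 stood before COL6A1 and COL16A1 before COL7A1, and both of these pairs overlapped.

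Collagen IV is the basement membrane collagen, and its most common molecule joins a pair of COL4A1 chains with a single COL4A2 chain. COL4A1 stood at 37.3, 36.6 and 34.7 FPKM in the Agrimol B libraries, against 57.2, 55.3 and 55.5 FPKM in the control libraries. Every Agrimol B library was below every control library. The log2 difference was -0.62 (95% interval -0.72 to -0.51, adjusted p = 0.000137 by limma). Its partner COL4A2 stood at 76.9, 73.8 and 73.7 FPKM with Agrimol B, against 76.9, 66.5 and 76.5 FPKM in control libraries. The groups overlapped, with the second control library lowest. Its log2 difference was 0.03 (95% interval -0.13 to 0.19, adjusted p = 0.712 by limma), which spans 0.916-fold to 1.14-fold on that scale.

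The pair therefore stood in a different ratio in the groups. The COL4A2 to COL4A1 ratio of FPKM within a library was 2.06, 2.02 and 2.12 with Agrimol B, against 1.34, 1.20 and 1.38 in control libraries. All 3 Agrimol B ratios lay above all 3 control ratios, and the log2 ratio differed by 0.66 (exact permutation test, two-sided, p = 0.10, the smallest p that 3 against 3 libraries allow). How often the ratios of other gene pairs separate the groups was not determined. A ratio within a library does not depend on how the libraries are scaled. COL4A1 (chromosome 13, 110148963 to 110307233, minus strand) and COL4A2 (chromosome 13, 110305812 to 110513209, plus strand; GENCODE 29 on GRCh38) lie head to head and overlap by 1422 bases on opposite strands, and whether the values were counted by strand is not stated. Counted without strand, fragments from the overlap could not be told apart.

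The genes share their promoter, which is shown because 1 gene of the pair fell and the other did not pass the test. RefSeq's windows of 250 bases before to 50 bases after the start of each gene (GRCh38.p14) overlap over 226 bases, and 126 bases lie between the start of COL4A1 and the start of COL4A2. With these RefSeq starts the genes themselves do not overlap. The overlap given above comes from GENCODE 29, where COL4A2 starts at 110305812. Each is written 5′ to 3′ on the strand of its gene, with matches to the CCAAT box (letters CCAAT), the GC box (letters GGGCGG) and the TATA box (letters TATAAA) on either strand in capitals. The windows are chr13:110307108-110307407 (minus strand) and chr13:110307034-110307333 (plus strand).
COL4A1: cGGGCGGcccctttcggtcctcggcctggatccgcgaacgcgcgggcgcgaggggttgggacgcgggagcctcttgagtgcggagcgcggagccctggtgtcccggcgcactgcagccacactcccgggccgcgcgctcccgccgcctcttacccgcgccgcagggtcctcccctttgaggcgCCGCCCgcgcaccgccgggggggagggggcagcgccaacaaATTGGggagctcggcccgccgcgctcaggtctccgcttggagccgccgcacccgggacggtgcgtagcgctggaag
COL4A2: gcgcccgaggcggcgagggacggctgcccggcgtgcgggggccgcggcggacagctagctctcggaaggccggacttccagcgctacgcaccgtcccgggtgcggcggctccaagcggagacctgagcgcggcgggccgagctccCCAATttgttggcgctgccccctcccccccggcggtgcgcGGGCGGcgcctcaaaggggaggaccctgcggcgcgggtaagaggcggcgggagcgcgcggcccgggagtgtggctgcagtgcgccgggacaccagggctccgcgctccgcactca
The CCAAT box is 1 and the same element read from both sides, and it starts 105 bases before the start of COL4A2. Likewise, the GC box that starts 65 bases before the start of COL4A2 is the element marked CCGCCC in the COL4A1 window. Of all 35116 windows, 34.6% hold the CCAAT box, 45.0% the GC box and 11.5% the TATA box, counted on both strands, and these boxes did not overlap each other in the windows shown. Neither of these windows holds the TATA box. G and C make up 76.5% of the shared bases.

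**Figure D2:**
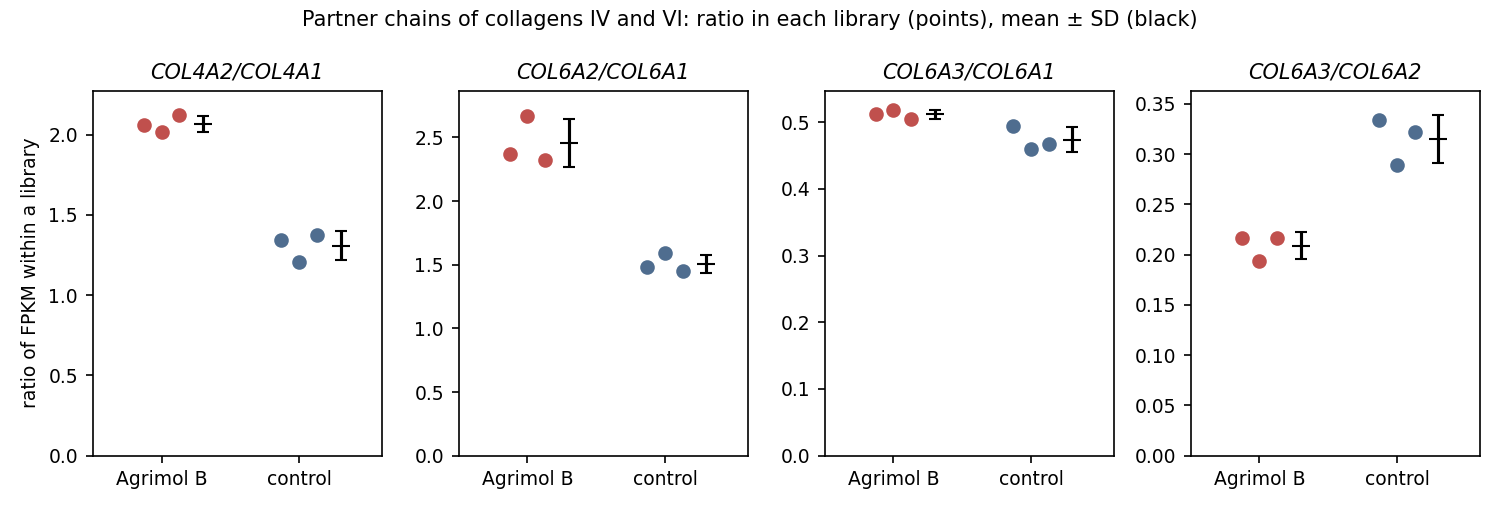
Ratio of the FPKM of partner chains within each library, for collagen IV (COL4A2/COL4A1) and collagen VI (the other panels), with Agrimol B on the left and control on the right of each panel and axes from 0. Points are libraries and black bars are the mean ± SD (n = 3 per group). COL4A2/COL4A1 lies between 2.02 and 2.12 with Agrimol B and between 1.20 and 1.38 in control libraries.

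Collagen VI is made of COL6A1, COL6A2 and COL6A3, which join as 1 chain of each, and its chains also moved apart. COL6A2 stood at 124, 136 and 127 FPKM with Agrimol B, against 82.0, 86.3 and 77.7 FPKM in control libraries. The lowest Agrimol B library was well above the highest control library. The log2 difference was 0.65 (95% interval 0.51 to 0.79, adjusted p = 0.000279 by limma), the only rise among the 10 chains. COL6A1 stood at 52.5, 51.0 and 54.7 FPKM with Agrimol B, against 55.4, 54.3 and 53.6 FPKM in control libraries, and the groups overlapped. Its log2 difference was -0.05 (95% interval -0.15 to 0.05, adjusted p = 0.387 by limma). Over all alternatives run, the adjusted p of COL6A1 by limma lay between 0.0536 and 0.702. The lowest came with median-ratio scaling, where the log2 difference was -0.12. COL6A3, the longest of these chains and the one whose released end is known as endotrophin, stood at 26.9, 26.4 and 27.6 FPKM with Agrimol B, against 27.4, 24.9 and 25.1 FPKM in control libraries. These values overlapped too, with a log2 difference of 0.06 (95% interval -0.06 to 0.19, adjusted p = 0.356 by limma).

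COL6A2 made up 61.0%, 63.8% and 60.7% of the summed FPKM of the collagen VI chains with Agrimol B, against 49.8%, 52.1% and 49.7% in control libraries. The COL6A2 to COL6A1 ratio averaged 2.45 ± 0.188 with Agrimol B and 1.51 ± 0.0737 in control libraries (SD, n = 3 each). The COL6A3 to COL6A2 ratio averaged 0.209 ± 0.0131 with Agrimol B and 0.315 ± 0.0236 in control libraries. COL6A3 to COL6A1 moved least, with averages of 0.511 ± 0.00671 with Agrimol B and 0.474 ± 0.0186 in control libraries. In each of these ratios the groups did not overlap. Among single genes, 62.2% of those tested had groups that did not overlap, and the share among ratios of other gene pairs was not determined. The log2 ratios differed by 0.70, -0.59 and 0.11, each with p = 0.10 by the exact permutation test, and the adjusted p over the 4 ratios, collagen IV included, was 0.10.

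COL6A1 and COL6A2 are neighbours on chromosome 21 on the same strand, 93.0 kb apart, and COL18A1 ends 468 kb before COL6A1. In the 728 kb from the start of COL18A1 to the end of COL6A2 (45405137 to 46132849) GENCODE lists 5 protein-coding genes, all tested. COL18A1 and SLC19A1, a folate carrier, fell, PCBP3 and COL6A2 rose, and COL6A1 between them did not pass the test. Beside these, 30.6% of all tested genes rose and 21.4% fell, 52.0% in all. SLC19A1 and PCBP3 were named for their position. The RefSeq window of COL6A2 is shown as that of the 1 chain that rose (chr21:46097862-46098161, plus strand, same motifs in capitals).
COL6A2: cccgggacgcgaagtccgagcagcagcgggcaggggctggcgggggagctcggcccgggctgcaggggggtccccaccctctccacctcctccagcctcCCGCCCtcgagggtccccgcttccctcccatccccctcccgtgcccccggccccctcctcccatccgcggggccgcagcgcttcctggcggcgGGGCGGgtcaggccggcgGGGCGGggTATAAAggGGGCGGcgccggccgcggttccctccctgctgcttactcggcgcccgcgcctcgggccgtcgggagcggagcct
It holds the TATA box starting 32 bases before the start of the gene and 4 copies of the GC box counted on both strands. Windows were found for 8 of the 10 genes, 9 windows in all because COL18A1 has a second start. Of these 9, 8 held the GC box, 3 held the TATA box and 2, the overlapping windows of COL4A1 and COL4A2, held the CCAAT box. These matches describe the letters only.

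COL8A1 encodes a short-chain collagen that forms hexagonal networks in the membrane behind the cornea and in vessel walls. It stood at 3.89, 3.39 and 3.76 FPKM with Agrimol B, against 11.4, 12.3 and 7.77 FPKM in control libraries. The third control library was lower than the other control libraries, and still above all Agrimol B libraries. COL8A1 showed the largest difference of the 10 chains, -1.27 on the log2(FPKM + 1) scale (95% interval -1.66 to -0.88, adjusted p = 0.00118 by limma), and -1.45 without the third control library. It was also the chain with the lowest level, so this scale understates its change most. Its partner in networks of the same type, COL8A2, stood at 1.33, 0.799 and 1.10 FPKM with Agrimol B, against 2.67, 2.71 and 2.10 FPKM in control libraries, and fell as well (log2 difference -0.75, adjusted p = 0.00328 by limma).

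COL12A1 and COL16A1 belong to the collagens with interrupted helices, which sit on the surface of fibrils and link them to the surrounding matrix. COL16A1 stood at 15.4, 14.1 and 14.4 FPKM with Agrimol B, against 22.6, 24.9 and 23.7 FPKM in control libraries. There was no overlap, and the log2 difference was -0.66 (95% interval -0.80 to -0.53, adjusted p = 0.000267 by limma). COL12A1 stood at 54.4, 51.3 and 64.1 FPKM with Agrimol B, against 58.2, 63.5 and 59.8 FPKM in control libraries. Here the third Agrimol B library was the highest of all 6 and the other Agrimol B libraries were the lowest. The log2 difference was -0.10 (95% interval -0.31 to 0.12, adjusted p = 0.379 by limma), and without the third Agrimol B library it was -0.19 with an adjusted p of 0.0469, inside the threshold. Over all alternatives run, the adjusted p of COL12A1 by limma lay between 0.0469 and 0.772.

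COL7A1 encodes the chain of the anchoring fibrils that tie the basement membrane of skin to the dermis. It stood at 20.5, 22.2 and 22.4 FPKM with Agrimol B, against 22.8, 21.3 and 21.4 FPKM in control libraries. The groups overlapped and the log2 difference was -0.01 (95% interval -0.14 to 0.12, adjusted p = 0.864 by limma), a range of 0.904-fold to 1.09-fold on that scale. COL7A1 is made mainly by keratinocytes in skin. It stood at 22.4 FPKM in the third Agrimol B library, where the keratins KRT5 and KRT14 were highest. Its highest value, 22.8 FPKM, was in the first control library, where KRT5 stood at 0.131 FPKM and KRT14 at 0 FPKM. The epithelial marker CDH1 was highest in the second control library (0.439 FPKM) and CLDN4 in the second Agrimol B library (1.12 FPKM). A further keratin, KRT19, stood at 0, 3.17 and 2.68 FPKM with Agrimol B, against 0, 0.0357 and 0.209 FPKM in control libraries, and did not pass the test (adjusted p = 0.108 by limma). COL17A1, another collagen of epithelia, stood at 0.206, 0.189 and 0.837 FPKM with Agrimol B, against 0.0549, 0.0352 and 0.0421 FPKM in control libraries, and was too low to be tested. COL17A1 was singled out after its values were seen. The part of the keratin signal in these values was not tested.

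COL18A1 encodes a basement membrane collagen that carries heparan sulfate and whose end is cut off as endostatin, an inhibitor of vessel growth. It stood at 30.4, 29.0 and 29.7 FPKM with Agrimol B, against 36.0, 34.9 and 35.4 FPKM in control libraries. The difference was the smallest of those called, and the SDs were 0.676 FPKM with Agrimol B and 0.552 FPKM in control libraries. The groups did not overlap (log2 difference -0.25, 95% interval -0.34 to -0.15, adjusted p = 0.00295 by limma). COL18A1 overlaps SLC19A1 by 20149 bases on the opposite strand, and values per start site, of which it has several, were not analysed here.

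**Figure D3:**
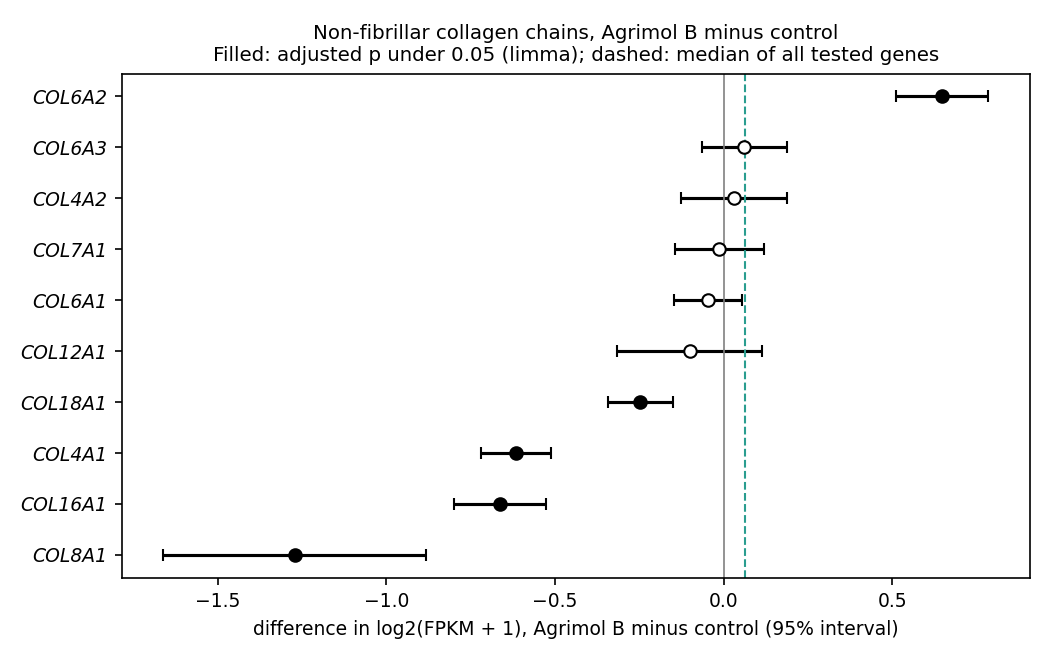
Difference in log2(FPKM + 1), Agrimol B minus control, for the 10 chains, with 95% intervals from limma. Filled points passed an adjusted p of 0.05, open points did not, and the dashed line is the median of all tested genes, 0.07. The chains run from -1.27 for COL8A1 to 0.65 for COL6A2, and the 5 open points have intervals that include 0.

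Added up, the 10 chains came to 442, 444 and 452 FPKM with Agrimol B, against 450.0, 444 and 437 FPKM in control libraries, and the groups overlapped. With median-ratio scaling the sums were 429.6, 434 and 439.5 with Agrimol B, against 459, 453 and 448 in control libraries, and did not overlap, so the direction of the sum depends on the scaling. All collagen genes of the table together summed to 930.0, 895 and 907 FPKM with Agrimol B, against 1213, 1175 and 1163 FPKM in control libraries. The highest of them, the fibrillar chain COL1A1, is named for its part in this total. It fell from 419 ± 13.9 FPKM in control libraries to 293 ± 11.5 FPKM with Agrimol B (SD, n = 3 each). The 10 chains made up 47.6%, 49.6% and 49.8% of that total with Agrimol B, against 37.1%, 37.8% and 37.5% in control libraries.

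The rest of the collagen family is given beside these chains. Of 11 fibrillar chains 9 were tested, and 7 of these fell and 1 rose, with a median log2 difference of -0.79. That is 88.9% called, beside 52.0% of all tested genes. COL3A1 stood at 19.0 ± 0.805 FPKM with Agrimol B and at 93.0 ± 1.71 FPKM in control libraries (SD, n = 3 each), or 4.89-fold lower. COL11A1 fell 3.44-fold, COL1A2 2.73-fold, COL5A2 1.88-fold and COL5A3 1.81-fold. COL5A1 rose 1.53-fold, to 49.7 ± 1.65 FPKM with Agrimol B, against 32.4 ± 0.805 FPKM in control libraries, while its partner chain COL5A2 fell. Both passed the test, in opposite directions, whereas in collagens IV and VI a single chain passed. Of the 19 other non-fibrillar chains analysed, 13 were under the filter and 6 were tested, of which 2 fell and 1 rose. COL9A3, a cartilage collagen chain, fell 1.68-fold and COL8A2 2.31-fold, and COL13A1, a collagen that spans the cell membrane, rose 2.57-fold to 5.64 ± 0.243 FPKM, against 2.20 ± 0.447 FPKM in control libraries. The difference between these groups of chains was not tested.

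**Figure D4:**
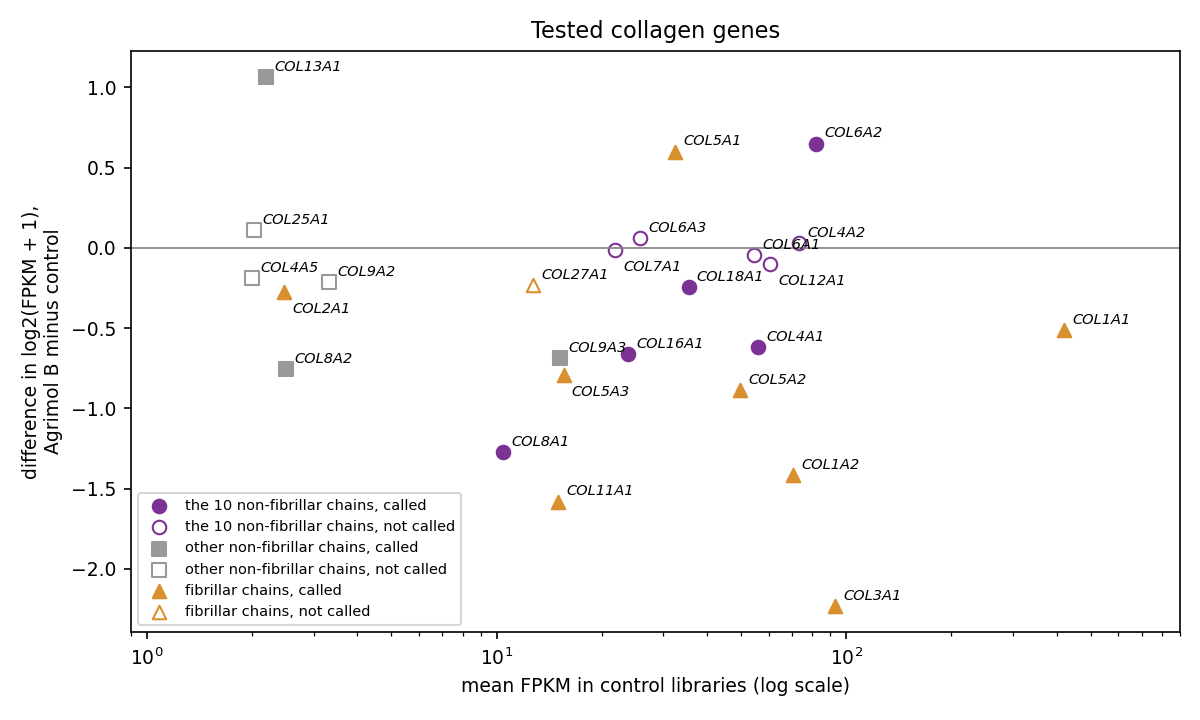
Each tested collagen gene by its mean FPKM in control libraries (log axis) and its difference in log2(FPKM + 1), Agrimol B minus control. Circles are the 10 non-fibrillar chains, squares the other non-fibrillar chains and triangles the fibrillar chains, filled where the adjusted p passed 0.05. The fibrillar triangles reach down to -2.23 for COL3A1, below the lowest circle, COL8A1, at -1.27.

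Proteins that build basement membranes with collagen IV changed in both directions. Of 15 tested, 8 fell and 4 rose, with a median log2 difference of -0.16. That is 80.0% called, beside 52.0% of all tested genes. NID2, a nidogen that links collagen IV to laminin, fell 3.02-fold, to 2.94 ± 0.148 FPKM with Agrimol B, against 8.89 ± 0.175 FPKM in control libraries. SPARC, which binds collagens, fell 1.82-fold, and the laminin chain LAMB3 rose 2.58-fold. All 3 passed by limma (adjusted p = 2.82e-05, 0.00206 and 0.000376).

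Of 24 tested genes that modify, fold, carry or trim collagen chains, 8 rose and 5 fell, with a median log2 difference of 0.11. These calls are 54.2% of the list, close to the 52.0% of all tested genes. SEC24D, a part of the coat of vesicles that leave the endoplasmic reticulum, rose 2.30-fold, to 27.5 ± 1.36 FPKM with Agrimol B, against 11.9 ± 0.427 FPKM in control libraries. MIA2, a receptor that loads large cargo into such vesicles, rose 2.42-fold. PCOLCE, which enhances the trimming of fibrillar collagens, fell 1.92-fold, to 92.9 ± 3.70 FPKM with Agrimol B, against 179 ± 1.18 FPKM in control libraries.

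Of 10 tested collagen receptors, 5 rose and 1 fell, with a median log2 difference of 0.28 (60.0% called, beside 52.0% of all tested genes). ANTXR2, which binds collagen IV and laminin and takes up collagen VI, rose 2.45-fold, to 2.20 ± 0.237 FPKM with Agrimol B, against 0.898 ± 0.0325 FPKM in control libraries. ITGA11, an integrin chain that binds fibrillar collagen, rose 1.89-fold, and DDR1, a receptor kinase that binds collagen IV and others, fell 2.11-fold. Of 11 tested proteases and inhibitors, 5 rose and 3 fell, with a median of 0.21 (72.7% called). The collagenase MMP1 rose 40.8-fold, to 141 ± 20.8 FPKM with Agrimol B, against 3.45 ± 0.231 FPKM in control libraries. TIMP3, an inhibitor held in the matrix, fell 2.21-fold. The protease CTSB stood at 80.5, 82.5 and 76.2 FPKM with Agrimol B, against 23.6, 22.0 and 58.3 FPKM in control libraries (adjusted p = 0.0227 by limma), and its call was lost when any library other than the third control was left out (adjusted p 0.0572 to 0.0684).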

How the data were processed

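The authors deposited 1 table of FPKM values per gene symbol and library. Per the labels' protocols a stranded mRNA kit was used, and per the submitters' processing notes FastQC, cutadapt, Trimmomatic, HISAT and hg38 were used. For the program behind the FPKM values, its annotation, strand setting and gene filter: not given in the sources used here. Control columns are named NC where the sample descriptions say CN, and were matched by number.

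Values were taken as log2(FPKM + 1), which understates the change of low genes. Tests covered the 12143 genes whose mean across the 6 libraries reached 1 FPKM, in limma 3.58.1 under R 4.3.3 (group term, variance trend, two-sided, Benjamini-Hochberg over all tested genes, threshold 0.05), and 95% intervals come from the same fit. A fold divides 1 group mean of FPKM by the other, and "rose" and "fell" are used of genes called. Ratios of partner chains were compared by exact permutation over the libraries. The fit was also run on simulated libraries in which only a small share of genes was changed, unlike in these data. Its outcome there is not reported here. Alternatives were a pseudocount of 0.1, no filter, a filter of 5 FPKM, median-ratio scaling, quantile normalization, no variance trend, a replicate block and leaving out each library. Positions are from GENCODE 29 (GRCh38) and promoters from RefSeq (GRCh38.p14). Python 3.11.15 with pandas, numpy, scipy and matplotlib served for the rest.

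The members and the gene lists were chosen with earlier results of these data known. Named are all 10 chains, up to 6 called genes of each other collagen list and up to 3 of each further list, those with the largest differences.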

Additional observations from a re-analysis of the deposited data

How the results depend on the processing

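Among the 10 chains, the 5 calls kept their direction and their side of the threshold under all 13 alternatives of the fit, which included leaving out each library. Leaving out 1 library at a time gave 1 chain higher in each case and 4 to 5 lower, the fifth being COL12A1 without the third Agrimol B library. Over all tested genes these fits called 3232 to 3344 higher and 2259 to 2394 lower, against 3713 and 2598 with all libraries. Median-ratio scaling moved the calls to 3067 higher and 3164 lower. The difference in the summed FPKM of the 10 chains, Agrimol B minus control, was 2.57 as deposited and -19.2 with that scaling. That scaling divides the Agrimol B libraries by 1.024 to 1.030 and the control libraries by 0.975 to 0.980, which lowers the former and raises the latter. Why these factors differ between the groups was not tested. The log2 ratios of partner chains differed by 0.60 to 0.70 (COL4A2/COL4A1), 0.64 to 0.74 (COL6A2/COL6A1), 0.09 to 0.14 (COL6A3/COL6A1) and -0.65 to -0.54 (COL6A3/COL6A2) when single libraries were left out. Of 269 values of the 21 other genes named for the largest differences, 264 kept their call and 5, all of CTSB, lost it.

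Libraries with the same replicate number did not deviate together (correlations 0.0373, -0.00575 and -0.0146), so the numbers were not taken as pairs. With a replicate block 3392 genes were higher and 2384 lower, and 1 chain was higher and 4 lower, as without it. The table gives no read counts, so counting error, which weighs most on the lowest chain, COL8A1, could not be separated from the spread between libraries.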
